A study of Mus musculus with 24 samples.

Results

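The 8 genes examined mark the principal cells of the mouse hippocampus and were chosen by name from the 22274 genes of the deposited table, in which all 8 were found. *Prox1*, *Calb1*, *C1ql2* and *Dsp* are the 4 markers of dentate gyrus granule cells, and *Wfs1*, *Fibcd1*, *Spink8* and *Neurod6* are the 4 markers of pyramidal cells, above all those of field CA1. RNA was sequenced from 24 tissue samples of mice in 8 groups of 3. The lesioned animals underwent pituitary stalk electrical lesion (PEL). This operation uses a current to destroy the link between hypothalamus and pituitary gland, and the control animals had a Sham operation. The hippocampus was taken from Sham mice and from PEL mice at day 10 (PEL_10d). The hypothalamic samples, which hold the supraoptic and paraventricular nuclei, cover Sham, PEL at day 3 (PEL_3d) and PEL_10d, each without and with growth hormone (GH), whose dose is not given in the sources used here. All animals were male mice of the strain C57BL/6J. Their age, whether each sample came from a single animal and whether both tissues came from the same animals are not given in the sources used here. The Sham groups are labelled day 0, so the lesion and the days since surgery cannot be told apart, and p-values measure only the spread between these samples.

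The hippocampus passes signals from the entorhinal cortex to dentate granule cells, from these through their mossy fibre axons to CA3 pyramidal cells, and from CA3 to CA1. Each of these cell types keeps its own set of expressed genes, so that the level of a marker in bulk tissue follows both how many cells of the type were in the sample and how much of the transcript each cell held. *Prox1* is a homeobox transcription factor that maintains granule cell identity, *C1ql2* is a secreted C1q-like protein of mossy fibre synapses, *Calb1* encodes the calcium buffer calbindin and *Dsp* encodes desmoplakin of cell junctions. *Neurod6* is a basic helix-loop-helix transcription factor of forebrain pyramidal neurons, *Wfs1* encodes the endoplasmic reticulum protein wolframin, *Fibcd1* encodes a transmembrane receptor with a fibrinogen-like domain and *Spink8* belongs to a family of serine peptidase inhibitors.

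Total counts ranged from 15095267 to 17973494 per library. The hippocampal library labelled Sham 1 and the hypothalamic library labelled Sham 1 went against their tissue labels. In the former, 10 genes typical of the dorsal telencephalon summed to 62.9 FPKM (fragments per kilobase of transcript, scaled to library size, the deposited measure of level per length), against 1022 to 1142 in the other 5 hippocampal libraries and 42.6 to 67.8 in the other 17 hypothalamic libraries. In the latter, the same sum was 773. Both were left out of the main tests and moved to no other group, and each comparison they touch is also given with both kept as labelled. The third hippocampal Sham library is titled as hippocampus but carries the tissue label hypothalamus. Its telencephalic sum was 1068 and its 14 hypothalamic genes summed to 2.78 FPKM, against 887 or more in every kept hypothalamic library, so it stayed in the hippocampal group.

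In the hippocampus 10 days after the lesion, 2 of the 8 markers rose and 2 fell. *C1ql2* was the only granule cell marker called, and it rose. Among the pyramidal cell markers *Fibcd1* rose while *Spink8* and *Neurod6* fell. Of all 14191 genes tested, 6.15% were called at an adjusted p under 0.05, with 2.09% called higher and 4.07% called lower. In these bulk samples, fewer cells of a type and less RNA per cell cannot be told apart. This comparison has 3 PEL_10d and 2 Sham libraries, and the errors of log2 fold changes below are standard errors from edgeR's quasi-likelihood fit, with Benjamini-Hochberg adjusted p over all genes.

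*C1ql2* (ENSMUSG00000036907, GRCm38 chr1:120340582-120343174) stood at 14.7 and 18.6 FPKM in the Sham libraries 2 and 3 and at 24.4, 29.8 and 28.6 FPKM in PEL_10d libraries 1, 2 and 3. All lesioned libraries were above both controls. The log2 fold change was 0.70 ± 0.12, a 1.63-fold rise (adjusted p = 0.0189). *Fibcd1* (ENSMUSG00000026841, chr2:31813290-31846005) had 28.9 and 35.2 FPKM in the controls against 43.1, 50.6 and 51.7 FPKM after PEL, again without overlap. Its log2 fold change was 0.58 ± 0.11, a 1.49-fold rise (adjusted p = 0.0230).

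*Spink8* (ENSMUSG00000050074, chr9:109812280-109826633) moved the other way, at 36.4 and 30.6 FPKM in Sham and 22.8, 18.8 and 24.0 FPKM in PEL_10d. The 3 lesioned libraries were all below the controls, and the log2 fold change was -0.63 ± 0.13, that is 1.55-fold lower (adjusted p = 0.0350). *Neurod6* (ENSMUSG00000037984, chr6:55677822-55681263) stood at 177 and 143 FPKM in Sham and 118, 99.1 and 127 FPKM in PEL_10d. It too did not overlap between the groups, with a log2 fold change of -0.51 ± 0.12, or 1.42-fold lower (adjusted p = 0.0467).

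The other 4 markers, which lie at chr1:190118035-190170714 (*Prox1*), chr4:15881264-15908064 (*Calb1*), chr13:38151294-38198577 (*Dsp*) and chr5:36966104-36989205 (*Wfs1*), did not pass the test. *Prox1* was at 16.7 and 15.3 FPKM in Sham and 17.4, 19.0 and 20.04 FPKM in PEL_10d, groups that do not overlap but differ little (log2 fold change 0.23 ± 0.08, adjusted p = 0.136). *Calb1* was at 20.1 and 25.2 FPKM in Sham and 24.5, 46.4 and 39.7 FPKM in PEL_10d, where the first library lay between the controls (log2 fold change 0.68 ± 0.24, adjusted p = 0.127). The estimate for *Calb1* was thus close to that for *C1ql2*, with a wider error. *Dsp* was at 5.79 and 7.16 FPKM in Sham and 5.62, 4.25 and 7.63 FPKM in PEL_10d (log2 fold change -0.17 ± 0.21, adjusted p = 0.665). *Wfs1* was at 43.9 and 24.9 FPKM in Sham and 36.7, 14.9 and 37.7 FPKM in PEL_10d (log2 fold change -0.20 ± 0.37, adjusted p = 0.778). *Wfs1* varied most within both groups in relation to its mean, with coefficients of variation of 43.2% in PEL_10d and 39.2% in Sham, against 7.10% and 6.08% for *Prox1*.

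**Figure D1:**
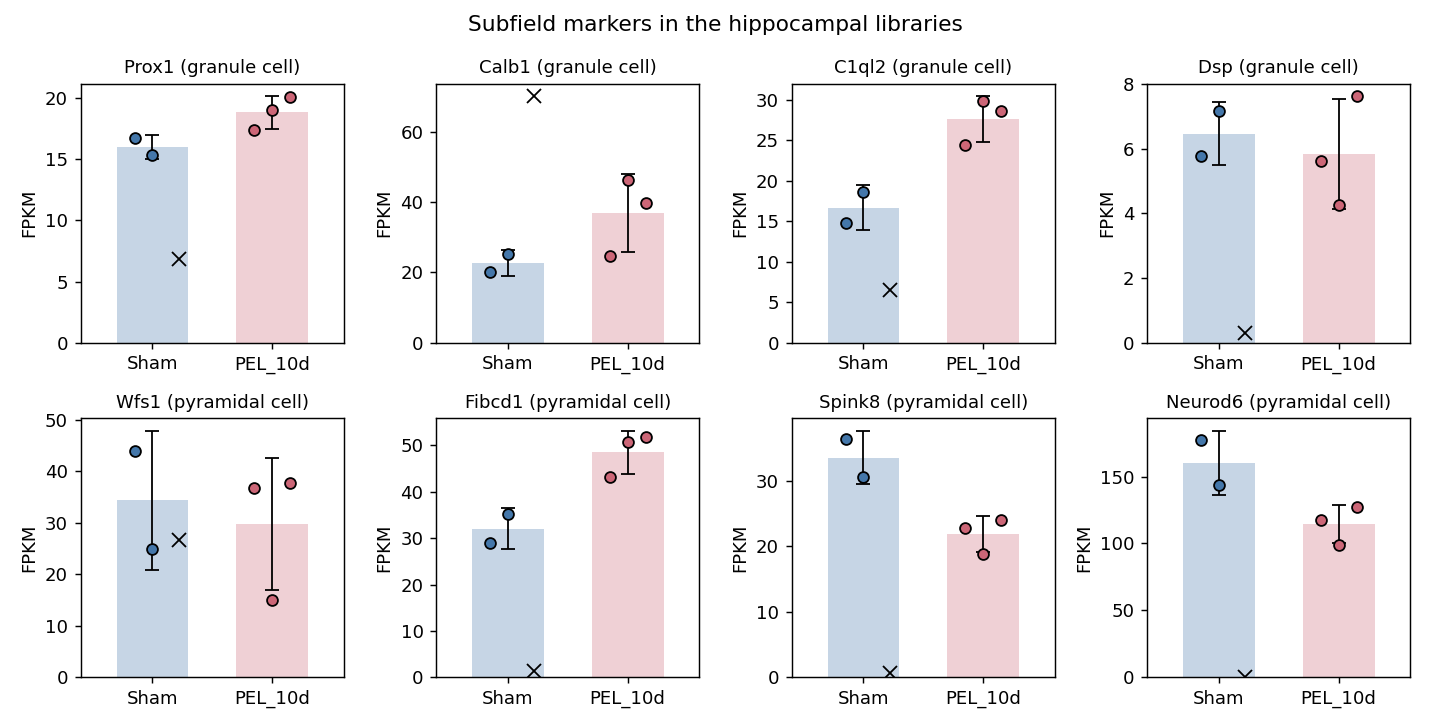
FPKM of the 8 markers (1 panel each, axes from 0) in the hippocampal Sham and PEL_10d libraries. Points are libraries, bars are means and error bars SD over the 2 kept Sham and 3 PEL_10d libraries, and crosses mark the library labelled Sham 1, which was left out. *C1ql2* and *Fibcd1* lie higher and *Spink8* and *Neurod6* lower in every PEL_10d library than in the kept Sham libraries, whereas *Dsp* and *Wfs1* overlap.

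Over the 4 granule cell markers the median log2 fold change was 0.45 and over the 4 pyramidal cell markers it was -0.35, beside 0.01 over all genes tested. The groups did not overlap in FPKM for 5 of the 8 markers, 3 of them higher and 2 lower in PEL_10d, while 42.3% of all genes tested did not overlap, so non-overlap by itself is common with 3 libraries against 2. As a summary within each library, the median log2(FPKM + 0.1) of the granule cell markers minus that of the pyramidal cell markers was -1.35 and -0.95 in Sham and -0.94, -0.37 and -0.88 in PEL_10d. Its means were -1.15 ± 0.28 (SD, n = 2) and -0.73 ± 0.31 (SD, n = 3), a difference of 0.42, and no test was made of it. The difference was 0.24 without PEL_10d library 2 and 0.22 without Sham library 2. The PEL_10d library 2 stood apart in this measure, with the highest *Calb1* and *C1ql2* and the lowest *Wfs1*, *Dsp*, *Spink8* and *Neurod6* of its group.

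These calls changed with single libraries. With the library labelled Sham 1 kept in its group, in which *Neurod6* was at 0.429 FPKM and *Calb1* at 70.2 FPKM, none of the 8 markers passed edgeR's test, nor did any gene, although 1 marker and 1434 genes had an unadjusted p under 0.05. Leaving out PEL_10d library 2 left 0 markers called. The calls were also lost without Sham library 2 or Sham library 3, but each of these fits leaves 1 control library, so that the lesioned group alone gives the spread. The same limit holds in each later comparison where 1 of the 2 kept Sham libraries is left out. Without PEL_10d library 2 the adjusted p was 0.0530 for *C1ql2*, 0.0644 for *Fibcd1*, 0.0800 for *Spink8* and 0.0947 for *Neurod6*. Without PEL_10d library 1 the count was 6, since *Prox1* (log2 fold change 0.29, adjusted p = 0.0291) and *Calb1* (log2 fold change 0.91, adjusted p = 0.00209) also passed. The direction of the 4 called markers was kept when any one of these 5 libraries was left out. DESeq2 called the same 4 markers.

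Promoter sequences of the RefSeq set on build GRCm38.p6, from 250 bases before to 50 bases after the annotated start, were matched for 6 of the 8 markers, and *Calb1* and *Spink8* had no entry. The promoters of *C1ql2* and *Fibcd1*, which rose, and of *Neurod6*, which fell, are shown 5′ to 3′ on the strand of the gene, with each CpG dinucleotide in capitals, a feature chosen after the sequences were seen. They lie at chr1:120340332-120340631 on the plus strand, chr2:31845956-31846255 on the minus strand and chr6:55681214-55681513 on the minus strand.
C1ql2: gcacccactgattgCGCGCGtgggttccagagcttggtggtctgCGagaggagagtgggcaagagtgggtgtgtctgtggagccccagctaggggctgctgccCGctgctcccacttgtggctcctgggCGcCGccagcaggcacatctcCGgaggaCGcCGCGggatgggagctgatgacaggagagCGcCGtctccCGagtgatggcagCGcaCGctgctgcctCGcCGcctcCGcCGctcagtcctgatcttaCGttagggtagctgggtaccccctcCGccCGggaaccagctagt
Fibcd1: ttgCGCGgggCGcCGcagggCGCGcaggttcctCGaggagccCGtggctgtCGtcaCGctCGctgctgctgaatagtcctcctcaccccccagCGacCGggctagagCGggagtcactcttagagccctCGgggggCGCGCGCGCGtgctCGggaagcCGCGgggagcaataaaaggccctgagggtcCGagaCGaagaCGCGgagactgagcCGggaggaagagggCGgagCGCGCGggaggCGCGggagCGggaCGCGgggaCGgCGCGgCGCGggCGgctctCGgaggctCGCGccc
Neurod6: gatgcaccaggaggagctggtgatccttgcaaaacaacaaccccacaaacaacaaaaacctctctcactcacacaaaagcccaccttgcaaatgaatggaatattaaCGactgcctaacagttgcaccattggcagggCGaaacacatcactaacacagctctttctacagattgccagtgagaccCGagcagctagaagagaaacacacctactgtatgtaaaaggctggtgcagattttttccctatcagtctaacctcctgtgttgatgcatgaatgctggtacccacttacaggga
The *Fibcd1* promoter holds 46 CpG, a number that 1.65% of the 32851 promoters of the set reach. The *C1ql2* promoter holds 23 (reached by 21.5%) and the *Neurod6* promoter holds 3 (reached by 76.7%), while the median over the set is 7 and 94.6% hold at least 1. Their GC contents are 74.3%, 67.3% and 46.3%, against a median of 52.7%. Among the others, *Dsp*, *Wfs1* and the *Prox1* entries hold 27, 30, 25 and 14 CpG. An exact search on both strands for 2 E-box motifs that do not overlap each other, CAGATG (in 17.2% of all promoters) and CAGCTG (in 16.3%), found CAGATG once in 1 of the 2 *Prox1* promoters and once in that of *Wfs1*, and no other match. These are descriptions of the letters in this window only.

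Other genes of the same cell types were then read beside the markers. Of 8 further granule cell genes only *Stxbp6*, a binding partner of SNARE proteins, was called. It was at 19.9 and 21.99 FPKM in Sham and 25.5, 29.6 and 29.8 FPKM in PEL_10d (log2 fold change 0.38 ± 0.08, adjusted p = 0.0389), and the median of the list was 0.01. Of 6 further CA1 genes only the secreted matrix protein gene *Ccn3* was called. Its values were 12.5 and 17.8 FPKM in Sham and 25.3, 62.3 and 47.7 FPKM in PEL_10d (log2 fold change 1.56 ± 0.34, adjusted p = 0.0380), and the median of the list was 0.08. The other members of both lists did not pass, and the called CA1 gene differed in the direction of *Fibcd1*, opposite to *Spink8* and *Neurod6*. *Ccn3* was also called higher in the hypothalamus at day 10 (0.76 ± 0.18, adjusted p = 0.0363), though not at day 3 (-0.46 ± 0.20, adjusted p = 0.0870). Its rise was thus not particular to the hippocampus. The genes of these lists were not refitted without single libraries.

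Among the neighbouring fields, 1 of 8 CA2 genes fell. This was the adhesion gene *Amigo2*, at 15.5 and 14.6 FPKM in Sham and 10.1, 10.8 and 8.72 FPKM in PEL_10d (log2 fold change -0.63 ± 0.09, adjusted p = 0.0108). Of 6 CA3 genes only the protease-like gene *Prss35* was called, falling from 3.91 and 3.99 FPKM to 3.00, 2.75 and 2.75 FPKM (log2 fold change -0.49 ± 0.11, adjusted p = 0.0454). The other CA3 genes did not pass, with negative log2 fold changes from -0.67 to -0.03. The CA3 genes summed to 97.9 and 103 FPKM in Sham and 76.8 to 95.6 FPKM in PEL_10d. The medians of these lists were -0.12 and -0.22. The CA2 list was not particular to the hippocampus here. Its genes summed to 137 to 292 FPKM in the kept hypothalamic libraries against 194 to 268 FPKM in the kept hippocampal ones. *Amigo2* itself was higher in every kept hypothalamic library than in every kept hippocampal one.

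Beyond these fields, the lists named for hilar mossy cells and for the ventral hippocampus had medians of 1.32 and 1.33. Neither list was particular to the hippocampus here, since the mossy cell genes summed to 119 to 192 FPKM in the kept hypothalamic libraries against 22.8 to 76.7 FPKM in the hippocampal ones, and the ventral genes to 45.9 to 138 against 21.1 to 111 FPKM. *Calb2*, which encodes calretinin of mossy cells and of some interneurons and is a paralog of *Calb1*, was at 6.02 and 5.90 FPKM in Sham and 47.0, 40.5 and 22.2 FPKM in PEL_10d. Its log2 fold change of 2.59 ± 0.30 (adjusted p = 0.00337) was the single call among 5 mossy cell genes, and among the 6 tested of 8 paralogs of the markers. Of the 5 genes of the ventral list, 2 rose and 1 fell. The proteoglycan gene *Dcn*, which meningeal fibroblasts also express, went from 5.46 and 4.83 FPKM to 26.7, 65.0 and 18.4 FPKM (log2 fold change 2.82 ± 0.54, adjusted p = 0.0242). The peptide gene *Grp* went from 2.70 and 5.25 FPKM to 15.3, 28.1 and 14.0 FPKM (log2 fold change 2.25 ± 0.37, adjusted p = 0.0152). *Coch*, a gene of the extracellular matrix, went from 4.25 and 5.74 FPKM down to 2.91, 2.09 and 1.68 FPKM (log2 fold change -1.18 ± 0.23, adjusted p = 0.0245). Whether the position of the dissection moved with the group was not tested.

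Genes of tissue next to the hippocampus also moved with the group. All 10 choroid plexus genes were tested and 9 fell, with a median log2 fold change of -3.59. The exception was the transthyretin gene *Ttr*, named here after its values were seen, at 4157 and 5224 FPKM in Sham and 116, 28.5 and 767 FPKM in PEL_10d (log2 fold change -3.96 ± 1.04, adjusted p = 0.0637). The other 9 summed to 231 and 273 FPKM in Sham and 26.9, 17.4 and 45.3 FPKM in PEL_10d. The potassium channel gene *Kcne2* went from 23.8 and 29.0 FPKM to 0.884, 0.329 and 3.04 FPKM (log2 fold change -4.28 ± 0.49), the channel gene *Kcnj13* from 34.3 and 42.3 FPKM to 1.24, 0.350 and 5.597 FPKM (-4.06 ± 0.58), and the water channel gene *Aqp1* from 10.3 and 14.1 FPKM to 0.358, 0.148 and 1.81 FPKM (-4.04 ± 0.56). Of 6 striatal genes, *Ppp1r1b* fell (log2 fold change -1.11 ± 0.14, adjusted p = 0.00455) and *Rgs9* rose (0.59 ± 0.14, adjusted p = 0.0484). The interneuron gene *Gad1* rose slightly (0.27 ± 0.06, adjusted p = 0.0393), the single call among 6. The part of these tissues in the marker differences was not tested. No gene was called among 10 telencephalic, 6 immature neuron, 5 neocortical, 5 thalamic, 7 microglial, 6 oligodendrocyte and 5 immediate early genes, the 5 tested of 6 reactive astrocyte genes or the 2 tested of 14 hypothalamic genes. The telencephalic sum was alike in both groups, at 1068 and 1097 FPKM in Sham and 1022 to 1142 FPKM in PEL_10d. Other sums varied more within PEL_10d. The thalamic sum ranged from 9.58 to 33.6 FPKM there and from 13.8 to 22.5 FPKM in Sham. The oligodendrocyte sum ranged from 1985 to 4035 FPKM and from 3175 to 3423 FPKM.

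**Figure D2:**
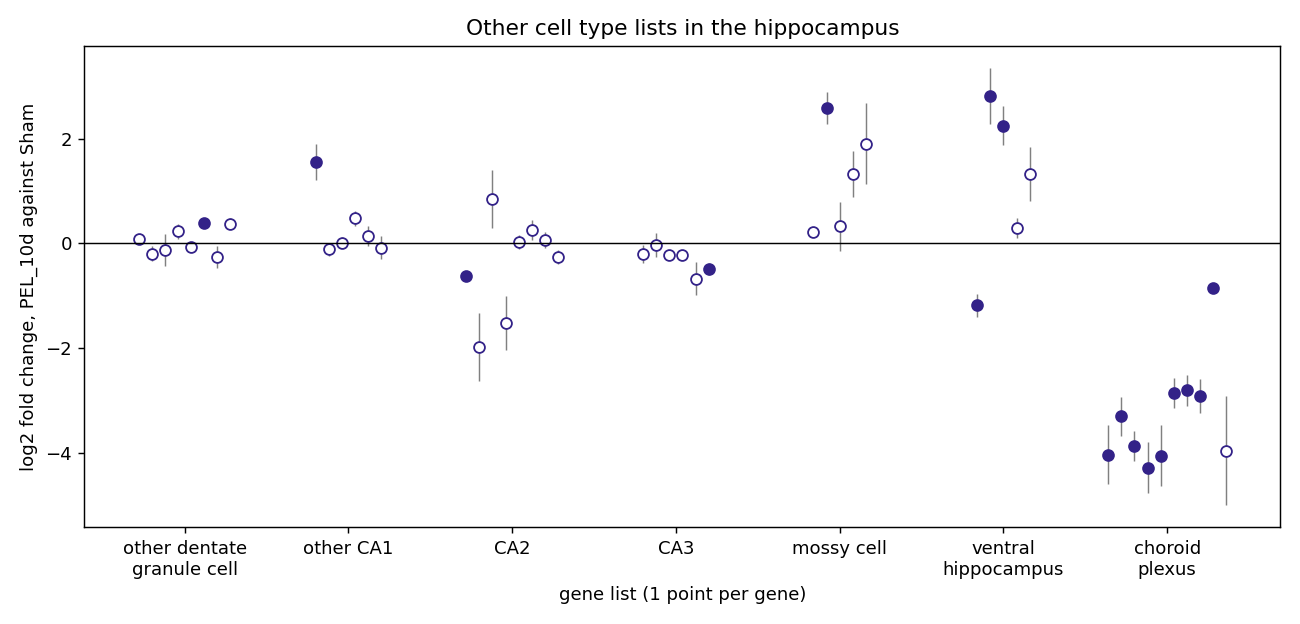
Log2 fold change (PEL_10d against Sham, hippocampus) of each tested gene of 7 cell type lists, with standard errors; filled points passed an adjusted p under 0.05. The choroid plexus genes lie below -0.8 and the CA3 genes between -0.67 and -0.03, whereas most granule cell and CA1 genes lie near 0.

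Levels per length differed widely between the markers in the hippocampus, and their order differed between the groups. *Neurod6* was the highest in both, at 160 ± 23.9 FPKM in Sham (SD, n = 2) and 115 ± 14.3 FPKM in PEL_10d (SD, n = 3), and *Dsp* the lowest, at 6.47 ± 0.968 and 5.84 ± 1.70 FPKM, neither overlapping its neighbour in the order. In Sham, *Wfs1* (34.4 ± 13.5 FPKM), *Spink8* (33.5 ± 4.09) and *Fibcd1* (32.01 ± 4.44) followed *Neurod6*, each overlapping the next. *Calb1* (22.7 ± 3.57) came below them without overlapping *Fibcd1*, and *C1ql2* (16.7 ± 2.77) and *Prox1* (16.004 ± 0.973) lay below *Calb1* and overlapped each other. In PEL_10d the order was *Fibcd1* (48.5 ± 4.67 FPKM), *Calb1* (36.9 ± 11.2), *Wfs1* (29.8 ± 12.9), *C1ql2* (27.6 ± 2.83), *Spink8* (21.9 ± 2.69) and *Prox1* (18.8 ± 1.34), and among these neighbours only *C1ql2* and *Spink8* did not overlap.

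The hypothalamus gives the level of the markers outside the hippocampus. In PEL_10d, 60.6% of all genes were called between the tissues, and in Sham 55.1%. The tissues were tested as unpaired samples. *Spink8* in both contrasts and *Neurod6* in Sham had under 10 counts in every hypothalamic library and entered the test through the hippocampal group alone, so that their calls are left out of the counts. Of the other 7 markers in PEL_10d, 5 were called, all higher in the hippocampus. Of the other 6 in Sham, 6 were called, 5 higher in the hippocampus and *Calb1* lower. The libraries left out were set aside because of such tissue genes, so the Sham contrast is not independent of that choice. With both kept as labelled, no marker and no gene was called in Sham by edgeR, with 0 markers and 336 genes at an unadjusted p under 0.05.

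*Neurod6* and *Spink8* were low in every kept hypothalamic library. *Neurod6* ranged from 99.1 to 177 FPKM in the hippocampus and from 0.209 to 1.37 FPKM in 17 hypothalamic libraries, where it had 7 to 46 counts per library. *Spink8* ranged from 18.8 to 36.4 FPKM against 0.0820 to 1.48 FPKM, the latter from 1 to 9 counts. Both genes were near the limit of detection in the hypothalamus, so no fold between the tissues is given for them. *Fibcd1*, *Dsp*, *C1ql2* and *Prox1* were also higher in every hippocampal library than in every kept hypothalamic library. The fitted fold between the tissues was 33.1 in PEL_10d and 23.6 in Sham for *Fibcd1*, 12.8 and 20.5 for *Dsp*, 6.03 and 3.08 for *C1ql2*, and 3.12 and 2.48 for *Prox1*.

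*Wfs1* and *Calb1* did not mark the hippocampus in this way. *Wfs1* ranged from 14.9 to 43.9 FPKM in the hippocampus and from 19.1 to 31.3 FPKM in the hypothalamus. Its log2 difference was 0.45 ± 0.18 in Sham (adjusted p = 0.0471) and 0.47 ± 0.31 in PEL_10d (adjusted p = 0.223). The Sham call was lost with DESeq2 (0.401), in 1 fit over all groups (0.224), with a mean count of at least 50 (0.0589) and without hypothalamic Sham library 2 (0.0977) or 3 (0.159), and it was close to 0 (-0.03) without hippocampal Sham library 2. In PEL_10d *Wfs1* passed without hippocampal library 2 (0.80, adjusted p = 0.00516). *Calb1* was higher in the hypothalamus, at 43.2 to 72.3 FPKM against 20.1 to 46.4 FPKM. Its log2 difference, hippocampus against hypothalamus, was -1.43 ± 0.08 in Sham (adjusted p = 6.38e-09) and -0.39 ± 0.20 in PEL_10d (adjusted p = 0.130), where it passed without hippocampal library 2 (-0.57, adjusted p = 0.0440) and in 1 fit over all groups (-0.42, adjusted p = 0.0209). Calbindin is made by many kinds of neurons, hypothalamic ones among them.

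**Figure D3:**
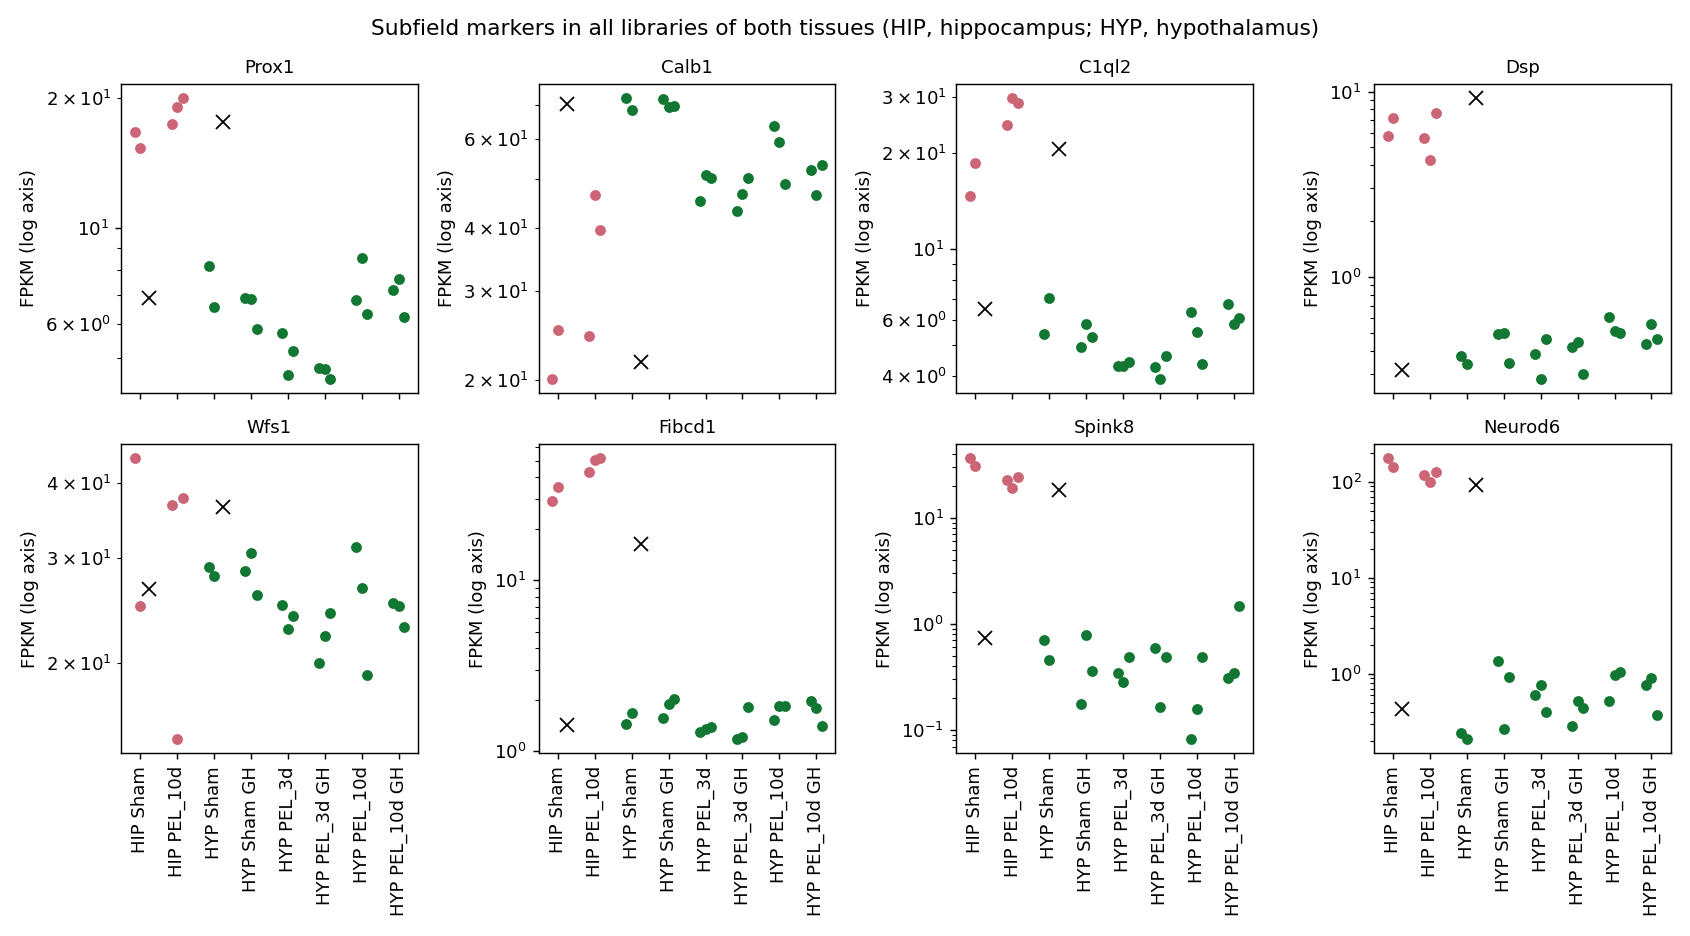
FPKM (log axis) of the 8 markers in all 24 libraries by group, with hippocampal libraries in red, hypothalamic ones in green and the 2 libraries that went against their tissue labels as crosses. *Neurod6*, *Spink8*, *Fibcd1*, *Dsp*, *C1ql2* and *Prox1* separate the tissues, *Wfs1* does not, and *Calb1* is higher in most hypothalamic libraries.

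In the hypothalamus 3 days after the lesion, 3 granule cell markers and *Wfs1* fell, that is 4 of 6 markers. *Neurod6* is left out of this count, since it had under 10 counts in both kept Sham libraries and entered the test through the lesioned group alone. Of all genes tested, 40.5% were called and 18.2% were called lower. *Calb1* went from 72.3 and 68.4 FPKM in Sham to 45.2, 50.8 and 50.3 FPKM in PEL_3d (log2 fold change -0.55 ± 0.07, adjusted p = 2.46e-04). *Prox1* went from 8.16 and 6.57 FPKM to 5.71, 4.56 and 5.18 FPKM (-0.54 ± 0.11, adjusted p = 0.00289), and was at an adjusted p of 0.0606 without Sham library 2. All lesioned libraries lay below both controls for these genes.

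*C1ql2* went from 5.44 and 7.06 FPKM to 4.32, 4.30 and 4.45 FPKM (-0.54 ± 0.16, adjusted p = 0.0187), and *Wfs1* from 28.9 and 27.9 FPKM to 24.98, 22.8 and 24.0 FPKM (-0.27 ± 0.07, adjusted p = 0.0108). The *C1ql2* call was lost without PEL_3d library 1 (0.0517) or Sham library 3 (0.203), and the *Wfs1* call without Sham library 2 (0.104) or in 1 fit over all hypothalamic groups (0.146). *Fibcd1* (-0.23 ± 0.17) and *Dsp* (0.05 ± 0.30) did not pass, and *Spink8* was below the filter on low counts. With the library labelled Sham 1 kept, 0 of 7 passed edgeR's test and 4 had an unadjusted p under 0.05. In these libraries 7 of 7 microglial and 6 of 6 reactive astrocyte genes rose and 10 of 13 hypothalamic genes fell, with microglial sums of 159 to 164 FPKM in Sham and 827 to 925 FPKM in PEL_3d. The part of these cells in the marker differences was not tested.

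By day 10, edgeR called 0 of the same 6 markers in the hypothalamus, where 9.4% of all genes were called. Of these 6, 2 had an unadjusted p under 0.05 and DESeq2 called 1, *Calb1*. *Neurod6* again entered the test through the lesioned group alone, so that its values are a description. It had 8 and 7 counts in the 2 kept Sham libraries, 21, 26 and 14 in PEL_3d and 18, 35 and 35 in PEL_10d. The log2 fold change was 1.34 ± 0.47 at day 3 (adjusted p = 0.0437) and 1.87 ± 0.48 at day 10 (adjusted p = 0.0426). Both estimates share the same 2 Sham libraries, and each call was lost when either of these was left out, which leaves 1 control library. The day 10 call was also lost without PEL_10d library 2 or 3 (0.0801 and 0.0884), and the day 3 call without PEL_3d library 1 or 2 (0.0812 and 0.0829), with DESeq2 (0.123), and with no filter on low counts (0.0564). In 1 fit over all hypothalamic groups the adjusted p was 0.108 at day 3 and 0.0683 at day 10. The highest hypothalamic value, 46 counts or 1.37 FPKM, was in a Sham library given GH. Of 8 telencephalic genes tested in the hypothalamus, 0 rose on either day by edgeR, nor did any have a higher level at an unadjusted p under 0.05.

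At day 10 *Calb1* was at 63.6, 59.2 and 48.7 FPKM, all below the Sham values (log2 fold change -0.32 ± 0.10, adjusted p = 0.0902). It passed in 4 of 12 alternatives, among them DESeq2 (0.0319), 1 fit over all hypothalamic groups (0.0424) and the fit without PEL_10d library 1 (0.0369). *Dsp* was at 0.607, 0.509 and 0.499 FPKM against 0.373 and 0.340 FPKM in Sham (0.55 ± 0.22, adjusted p = 0.160). The changes of *Prox1* (-0.07 ± 0.14), *C1ql2* (-0.22 ± 0.18), *Wfs1* (-0.18 ± 0.17) and *Fibcd1* (0.13 ± 0.17) were smaller and did not pass. With the library labelled Sham 1 kept, 0 of 7 passed edgeR's test and 0 had an unadjusted p under 0.05.

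Among *Prox1*, *Calb1*, *C1ql2*, *Dsp*, *Wfs1* and *Fibcd1*, the effect of the lesion at day 10 differed between the tissues for 2, where 10.7% of all genes had such a call. *C1ql2* differed by 0.96 ± 0.23 on the log2 scale (hippocampal minus hypothalamic change, adjusted p = 0.0232), from 0.70 in the hippocampus and -0.22 in the hypothalamus. *Calb1* differed by 1.03 ± 0.29 (adjusted p = 0.0450), from 0.68 and -0.32. *Neurod6* and *Spink8* are left out of this count because their hypothalamic changes rest on few Sham counts, 8 and 7 for *Neurod6* and 7 and 5 for *Spink8*. The estimate was -2.35 ± 0.50 for *Neurod6* (adjusted p = 0.0127) and 0.60 ± 0.60 for *Spink8* (adjusted p = 0.564). With both libraries that go against their labels kept, 0 of the 8 passed edgeR's test and 1 had an unadjusted p under 0.05. The *Calb1* call was kept without PEL_10d library 1 of the hippocampus and lost without any other of the 10 libraries. It was also lost with the replicate number as a block and with a mean count of at least 50 (adjusted p = 0.0515). The *C1ql2* call was lost without hippocampal PEL_10d library 2 (0.0598), hippocampal Sham library 2 (0.113) or hypothalamic Sham library 3 (0.129), and the *Neurod6* call without either hypothalamic Sham library (0.0645 and 0.0826).

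**Figure D4:**
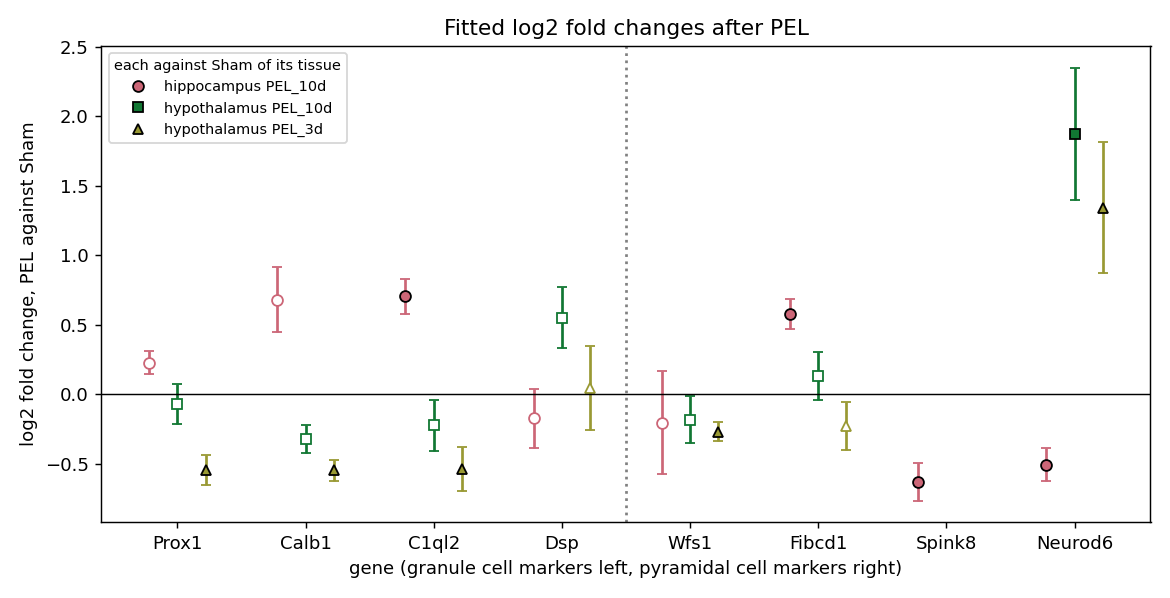
Log2 fold change of PEL against Sham, with standard errors, for the 8 markers in the hippocampus at day 10 (circles) and the hypothalamus at day 10 (squares) and day 3 (triangles); filled symbols passed an adjusted p under 0.05. *C1ql2* and *Calb1* lie above 0 in the hippocampus and below 0 in the hypothalamus, *Neurod6* the reverse, and *Spink8* was tested in the hippocampus only. Hypothalamic *Neurod6* had under 10 counts in each kept Sham library without GH.

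GH gave no call among the markers. In the hypothalamus 0 of 7 passed edgeR's test for PEL_3d with GH against PEL_3d (0.027% of all genes called), for PEL_10d with GH against PEL_10d (0% called) and for Sham with GH against Sham (1.09% called). At an unadjusted p under 0.05 the counts were 0, 0 and 1, and DESeq2 called 0 in each. The 1 was *Neurod6* in Sham with GH, at 46, 10 and 32 counts against 8 and 7 in Sham (log2 fold change 1.89 ± 0.63, adjusted p = 0.176), where it entered through the GH group alone and passed without the GH library 2 (2.33, adjusted p = 0.0196). After the lesion *Neurod6* was at 10, 18 and 17 counts with GH at day 3 (-0.46 ± 0.37) and 28, 31 and 14 at day 10 (-0.32 ± 0.40). *Calb1* stood at 43.2 to 50.2 FPKM in PEL_3d with GH, 46.6 to 53.2 FPKM in PEL_10d with GH and 69.3 to 71.8 FPKM in Sham with GH, and its log2 changes with GH were -0.04 ± 0.08, -0.17 ± 0.09 and 0.01 ± 0.05. The absolute log2 changes of the other 5 markers were between 0.00 and 0.27.

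Across the 22 kept libraries, the genes whose log2(FPKM + 0.1) was most like that of a marker were named as a description. The libraries fall into 2 tissues, and a gene with a step of the same shape between them has a high Pearson r. The closest genes among 13346 were *Fam13c*, *Pcnx2* and *Gng7* for *Prox1* (r = 0.98, 0.98 and 0.98), *Gng7*, *Fam189a1* and *Fam131a* for *C1ql2* (0.98 each) and *Dkk3*, *Sort1* and *Dock9* for *Dsp* (0.99 each). They were *Wasf1*, *Olfm1* and *Dlgap1* for *Fibcd1* (0.996, 0.995 and 0.994), *Tmem68*, *Sema3e* and *Atp2b1* for *Spink8* (0.98, 0.97 and 0.97) and *Neurod2*, *Adora1* and *Prdm8* for *Neurod6* (0.99 each). *Calb1* was most like *Shisa9*, *Prr16* and *Khdrbs2* (0.97, 0.96 and 0.95), and it ran against every other marker, with r from -0.78 to -0.28. *Wfs1* had no close partner, its best being *Sertad4*, *Snx19* and *Lingo3* (0.78, 0.72 and 0.68).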

How the data were processed

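Per the labels, RNA of 24 frozen mouse brain tissue samples was made into mRNA libraries. According to the study's methods the authors aligned reads with Hisat2 and counted them per gene with featureCounts, and the submitters' processing notes name build GRCm38 (mm10). Whether counting used strand is not given in the sources used here, and *Prox1* and *Dsp* overlap annotated genes on the opposite strand that are not in the table.

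The authors deposited estimated counts and FPKM values of 22274 genes, and symbols were found for 22219 of them. Of the estimated counts 8.22% were not whole, so the counts were rounded. The deposited FPKM values, normalized by the authors for length and depth, were used as they are, with 0.1 added on the log2 scale. Groups came from the sample titles.

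Groups were compared pairwise with edgeR 4.0.16 in R 4.3.3 (TMM, filterByExpr with a minimum count of 10, quasi-likelihood test, Benjamini-Hochberg, threshold 0.05), which was tested on simulated data. Alternatives were DESeq2 1.42.0 and its size factors, other filters, the replicate number as a block, 1 fit per tissue and each library left out. The markers, the other 19 lists and the 2 libraries left out were chosen with earlier results of these data known. Named beside the 8 markers were, of each list, up to 3 called hippocampal genes with the largest change, and the 3 genes most like each marker among those with a mean of at least 1 FPKM.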

Additional observations from a re-analysis of the deposited data

Results flagged for a closer look

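The change after the lesion at day 10 differed between hippocampus and hypothalamus, by edgeR's interaction term, for *Calb1* (1.03 on the log2 scale) and *C1ql2* (0.96). The value for *Neurod6* was -2.35, but its hypothalamic part rests on 8 and 7 Sham counts, so it is given as a description.

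The hypothalamic library labelled Sham 1, which no main comparison used, held *Prox1* at 17.6, *C1ql2* at 20.6, *Dsp* at 9.26, *Fibcd1* at 16.2, *Spink8* at 18.2 and *Neurod6* at 92.2 FPKM, each more than 2 times the highest of the other Sham hypothalamic libraries. Its *Prox1*, *Calb1*, *C1ql2* and *Wfs1* lay within the range of the 5 kept hippocampal libraries, its *Dsp* above that range, and its *Fibcd1*, *Spink8* and *Neurod6* below it. Its choroid plexus gene *Ttr* was at 14320 FPKM and the other 9 summed to 693 FPKM, against 5224 and 273 FPKM or less in the hippocampal libraries. The hippocampal library labelled Sham 1 held *Calb1* at 70.2 FPKM, and all 8 of its markers lay within the range of the 17 kept hypothalamic libraries. Both libraries were left out because they go against their tissue labels, so these values describe them and test nothing.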

How the results depend on the processing

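Keeping both libraries that go against their tissue labels left 0 markers called in every comparison they touch (4 in hippocampal PEL_10d against Sham, 5 and 1 in hypothalamic PEL_3d and PEL_10d, 8 between tissues in Sham and 3 for the difference of effects in the main tests). The counts here include *Neurod6* and *Spink8*, which at day 3, at day 10 (*Neurod6*) and between tissues in Sham (both) passed the filter through 1 group alone, and without them are 4, 0 and 6. Keeping both turned these signs among the markers. The hippocampal log2 changes of *Dsp* and *Neurod6* became 0.39 and 0.0773, the granule minus pyramidal difference -0.83, the hypothalamic day 10 changes of *Calb1* 0.0504, *Dsp* -2.70, *Fibcd1* -1.98 and *Neurod6* -5.26, those at day 3 of *Dsp* -3.20 and *Neurod6* -5.79, those in Sham with GH of *Dsp* -2.998, *Wfs1* -0.16, *Fibcd1* -1.87 and *Neurod6* -5.26, and the differences of effects of *Calb1* -0.00498, *Dsp* 3.11 and *Neurod6* 5.36. In hypothalamic PEL_10d, DESeq2 called 2 markers and a mean count of at least 50, which drops *Neurod6*, called 0. One fit per tissue called 3 markers in PEL_3d.

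Leaving out each library in turn gave 0 to 6 markers in the hippocampus, 2 to 5 in hypothalamic PEL_3d, 0 to 2 in PEL_10d, 0 to 1 in Sham with GH and 0 to 3 for the difference of effects (0 without hypothalamic Sham library 3). The 1 in Sham with GH came without its GH library 2. Some signs turned. Hippocampal *Wfs1* ranged from -0.56 to 0.27 (above 0 without PEL_10d library 2, at 0.12, or Sham library 2) and *Dsp* from -0.43 to 0.0169 (without PEL_10d library 2). *Dsp* at day 3 was -0.19 without PEL_3d library 3 and -0.11 without Sham library 3, and up to 0.27. *Prox1* at day 10 ranged from -0.21 to 0.0871 (above 0 without PEL_10d library 3, at 0.0198, or Sham library 2). *Wfs1* between tissues in Sham ranged from -0.0302 (without hippocampal Sham library 2) to 0.82. The cause was not tested.

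With the replicate number as a block, 6 markers were called in the hippocampus (adding *Prox1* and *Calb1*), 4 in hypothalamic PEL_3d (*Neurod6* at an adjusted p of 0.0701) and 3 in PEL_10d, and the difference of effects of *Calb1* was at 0.0546. Deviations of same-numbered hippocampal libraries from their group means correlated at -0.01 and -0.04. With 2 kept Sham libraries these deviations mirror each other, so the values cannot decide whether the numbers pair the samples.

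Of 112 counts of called markers under an alternative, 87 stayed within 1.5 times the main count. These include matches of 0 with 0 in the GH comparisons, which say nothing on stability. In the hippocampus *C1ql2*, *Fibcd1*, *Spink8* and *Neurod6* each passed in 8 of 12 alternatives. For *Neurod6* and *Spink8* in the hypothalamus, with at most 46 and 9 counts, depth limits what can be seen, and the Sham groups hold 2 libraries each.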
